A study of Mus musculus with 8 samples.

Results

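The heat shock genes followed here are 10 genes, 9 for cytosolic chaperones and co-chaperones and 1 (Hspe1) for a mitochondrial one, Hspa1a, Hspa1b, Hspa8, Hsph1, Hsp90aa1, Hsp90ab1, Hspb1, Dnajb1, Bag3 and Hspe1. They were chosen by gene symbol, and all 10 were found among the 26166 symbols of the count table and among the 12427 genes with enough reads to be tested. RNA was sequenced from whole livers of male C57BL/6N mice with diet-induced obesity (DIO), bought at 14 weeks of age and fed a diet with 60% of calories from fat for 3 weeks before dosing. The treated group received IXA4, a small molecule activator of the IRE1/XBP1s arm of the unfolded protein response (UPR), at 50 mg/kg once a day by intraperitoneal injection for 8 weeks. The vehicle group carried the same strain, sex, diet and daily injections, with the DMSO, Kolliphor EL, ethanol and saline solution that IXA4 was dissolved in. Each group had 4 libraries, described by the submitters as biological replicates, and the labels name no altered allele in either group. No lean group is analysed here, so every level below is that of an obese liver. The comparison asked whether a compound aimed at protein folding in the endoplasmic reticulum (ER) also altered transcripts for folding in the cytosol.

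Heat shock factor 1 (HSF1) is the transcription factor that drives the heat shock response. In unstressed cells it is held inactive by chaperones, and unfolded cytosolic protein releases it to bind inverted repeats of the unit GAA, the heat shock element, in its target promoters. Its targets refold or clear damaged protein, and in liver they are known to follow body temperature, feeding and proteotoxic injury, whereas the ER chaperones are governed by the UPR sensors.

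The stretches before the start sites of 5 of these genes are shown so that genes with a motif before the start site can be compared letter by letter with Bag3, the gene that rose with IXA4. They come from RefSeq (build GRCm38.p6), are written 5′ to 3′ toward the start site, and have in capitals each run that reads GAANNTTC or TTCNNGAA, the motif of 2 units, where N is any base. Each of these patterns reads the same on both strands. Dnajb1, which is not shown, also had no match before its start site and did not pass between groups (log2 fold change -0.01). Any relation of the motif to the rise with IXA4 was not tested.
Hspa1b, chr17:34959239-34959488, minus strand: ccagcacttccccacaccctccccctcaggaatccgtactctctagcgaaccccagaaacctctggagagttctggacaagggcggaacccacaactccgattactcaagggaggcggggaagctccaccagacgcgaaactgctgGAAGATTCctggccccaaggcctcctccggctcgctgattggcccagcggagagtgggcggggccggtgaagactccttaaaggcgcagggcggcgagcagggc
Hsph1, chr5:149636337-149636586, minus strand: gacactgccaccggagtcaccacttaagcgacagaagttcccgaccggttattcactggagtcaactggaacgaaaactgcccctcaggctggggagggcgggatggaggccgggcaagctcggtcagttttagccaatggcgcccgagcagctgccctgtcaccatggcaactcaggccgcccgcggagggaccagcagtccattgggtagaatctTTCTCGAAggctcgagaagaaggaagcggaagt
Hspe1, chr1:55087898-55088147, plus strand: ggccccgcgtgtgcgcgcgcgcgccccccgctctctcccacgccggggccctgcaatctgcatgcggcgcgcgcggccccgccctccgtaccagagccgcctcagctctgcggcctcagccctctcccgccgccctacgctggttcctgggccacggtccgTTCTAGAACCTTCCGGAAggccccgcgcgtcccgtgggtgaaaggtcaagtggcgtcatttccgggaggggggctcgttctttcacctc
Hspb1, chr5:135887669-135887918, plus strand: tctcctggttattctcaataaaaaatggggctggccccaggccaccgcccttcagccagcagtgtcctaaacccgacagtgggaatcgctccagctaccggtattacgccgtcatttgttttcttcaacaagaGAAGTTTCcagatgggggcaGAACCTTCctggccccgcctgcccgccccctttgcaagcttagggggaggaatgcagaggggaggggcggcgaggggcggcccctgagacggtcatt
Bag3, chr7:128523333-128523582, plus strand: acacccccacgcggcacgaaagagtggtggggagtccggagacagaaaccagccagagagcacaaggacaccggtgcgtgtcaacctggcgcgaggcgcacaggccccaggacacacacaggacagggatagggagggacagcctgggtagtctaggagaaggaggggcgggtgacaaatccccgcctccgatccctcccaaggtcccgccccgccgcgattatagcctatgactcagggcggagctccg

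Windows from 250 bases before to 50 bases after the start site were found in RefSeq for 7 of the 10 genes, and not for Hspa8, Hsp90aa1 and Hsp90ab1. The motif of 2 units was present in 6 of the 7 genes, all but Dnajb1, against 4587 of the 27025 genes with such a window (16.97%). Counting only bases before the start site, it was present in 5 of the 7 genes, against 14.5% of all genes with a window, and Bag3 was then without it because its match (GAAGTTTC) began 43 bases after the start site. Overlapping motifs of 3 units (GAANNTTCNNGAA or TTCNNGAANNTTC) were found in Hspe1 and Hsph1, against 0.662% of all genes with a window. The Bag3 match ended at the last base of its window, so a further unit after it could not be seen. In Hspe1 the 3 overlapping matches began 89, 84 and 79 bases before the start site, whereas in Hsph1 the longer run began 37 bases after it, or 16 bases after the other start site that RefSeq gives for that gene. The Hspa1a window differed little from that of Hspa1b, with 296 of 300 bases identical and the same match 104 bases before the start site. A match describes letters and was not measured as a bound site.

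Across the set, 1 of the 10 genes passed the test between groups. Bag3 was higher with IXA4, and no gene of the set was lower (edgeR quasi-likelihood test, Benjamini-Hochberg adjusted p under 0.05 over 12427 genes). In whole liver, more RNA per cell cannot be told apart from more cells of a type that carries the transcript. Over all genes tested, 4.63% were called in either direction and 3.64% were called higher. The median log2 fold change of the 10 genes was 0.18, beside -0.01 over all genes tested, with 7 positive and 3 negative values, where 47.9% of all genes were positive. The IXA4 libraries lay wholly below the vehicle libraries for 0 of the 10 genes, against 5.24% of all genes. The remaining genes varied mostly through a single library, IXA4 replicate 4, which held the highest level of 9 of the 10 genes, all but Hspe1. That library was the highest of the 8 for 21.1% of all genes tested. It stood more than 2-fold above the mean of the other IXA4 libraries for 5 of the 10 genes, Hspa1a, Hspa1b, Hsph1, Hsp90aa1 and Hspb1, as did 1.36% of all genes tested. The fold change of each of the 10 genes is therefore given with and without it, while many other comparisons are given only with it. Libraries are numbered as in the headings of the deposited table, which can be matched to a group but not to a particular animal. The 8 libraries held 16986915 to 18390185 counts, and levels are counts per 1000000 counts of the library (CPM) after scaling of library sizes by trimmed means (TMM factors 0.943 to 1.05).

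**Figure D1:**
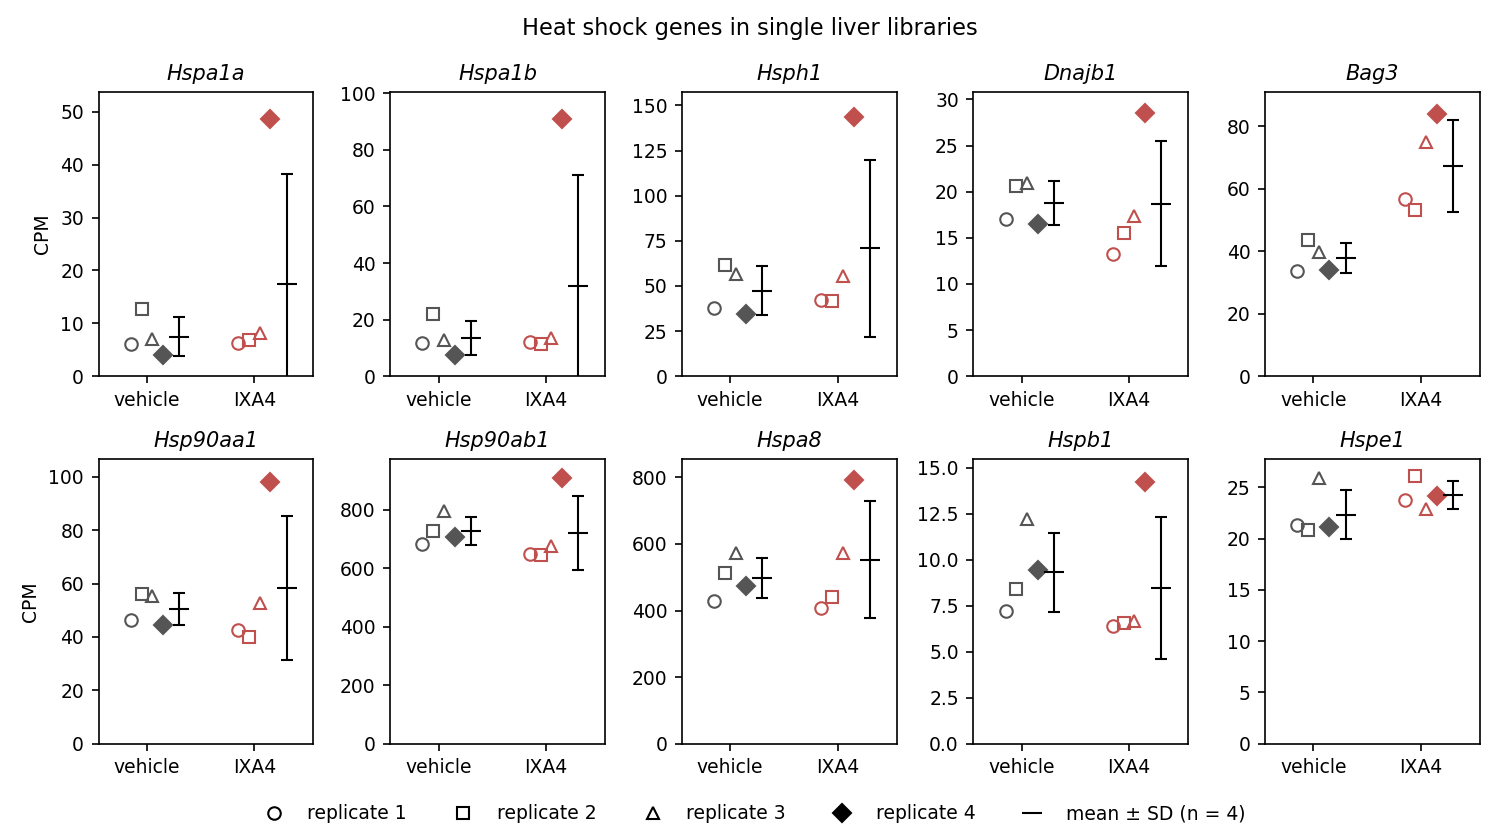
Levels of the 10 heat shock genes in CPM (vertical axes, from 0) in 4 vehicle and 4 IXA4 libraries, with a symbol for each replicate number, replicate 4 filled, and black bars for the mean ± SD (n = 4), cut off at 0 where the SD is larger than the mean. Replicate 4 of the IXA4 group lies above every other library in all panels but that of Hspe1, and Bag3 is the panel in which all IXA4 libraries lie above all vehicle libraries.

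Hspa1a and Hspa1b encode the stress-inducible HSP70 proteins, which are near absent in resting cells and are the classic readout of HSF1. They lie side by side on the minus strand of chromosome 17 (NCBIM37 chr17:35106144-35109069 and chr17:35093381-35096183), and Hspa1a overlaps the model Gm20481 of the other strand. Hspa1a was at 6.01, 12.7, 7.08 and 4.09 CPM in vehicle replicates 1 to 4 and at 6.32, 6.93, 8.13 and 48.6 CPM in IXA4 replicates 1 to 4. Hspa1b was at 11.7, 21.9, 12.9 and 7.36 CPM with vehicle and at 12.1, 11.3, 13.6 and 90.8 CPM with IXA4. For both genes the other 3 IXA4 libraries lay inside the vehicle range, vehicle replicate 2 was the highest control, and IXA4 replicate 4 stood 6.52-fold and 6.74-fold above the vehicle mean.

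The log2 fold change of Hspa1a was 1.23 (SE 0.83, 95% interval -0.77 to 3.23, edgeR adjusted p = 0.485) and that of Hspa1b was 1.25 (SE 0.85, interval -0.79 to 3.29, adjusted p = 0.489). Without IXA4 replicate 4 they became -0.06 (interval -0.84 to 0.71, adjusted p = 0.960) and -0.13 (interval -0.90 to 0.64, adjusted p = 0.903). The 2 transcripts were identical at 2464 of 2697 aligned bases, and 61.0% of the 50-base stretches of Hspa1a and 62.3% of those of Hspa1b recurred elsewhere in the genome, so that reads as short as these could be divided between the copies. The genes were therefore also summed. Their sum changed by 1.24 (adjusted p = 0.485) and, without IXA4 replicate 4, by -0.11 (interval -0.94 to 0.73, adjusted p = 0.931).

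Hspa8 encodes the constitutive HSP70 of the cytosol, HSC70, which handles everyday folding and clathrin uncoating, from the plus strand of chromosome 9 (NCBIM37 chr9:40609067-40613283). It was at 429.9, 512, 573 and 473 CPM with vehicle and at 409, 439, 572 and 792 CPM with IXA4. The groups overlapped, with IXA4 replicate 1 below the vehicle range, replicates 2 and 3 inside it and replicate 4 above it. Between groups the log2 fold change was 0.15 (SE 0.19, interval -0.26 to 0.57, edgeR adjusted p = 0.713), and -0.07 without IXA4 replicate 4 (interval -0.36 to 0.22). On the scale of CPM per kilobase of transcript, which allows genes to be compared, the vehicle mean of Hspa8 was 208 against 2.55 for Hspa1a and 4.80 for Hspa1b. The inducible copies thus stayed far below the constitutive gene in the vehicle livers. In Hspa8, 75.7% of 50-base stretches recurred elsewhere in the genome, so its level is uncertain.

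Hsph1 encodes HSP110, a large relative of HSP70 that acts as its nucleotide exchange factor and helps to dissolve aggregates (NCBIM37 chr5:150416862-150438951, minus strand). It was at 37.5, 61.4, 56.4 and 34.3 CPM with vehicle and at 42.1, 41.7, 55.5 and 144 CPM with IXA4. As with the inducible HSP70 genes, vehicle replicate 2 was the highest control, IXA4 replicates 1 to 3 fell within the vehicle range, and replicate 4 was 3.04-fold above the vehicle mean. Its log2 fold change was 0.58 (SE 0.47, interval -0.54 to 1.70, edgeR adjusted p = 0.570), and -0.03 without that library (interval -0.54 to 0.48, adjusted p = 0.973). No 50-base stretch of the Hsph1 transcript recurred elsewhere.

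Hsp90aa1 and Hsp90ab1 encode the stress-inducible and constitutive forms of cytosolic HSP90, which matures kinases and steroid receptors. They lie on the minus strands of chromosome 12 (NCBIM37 chr12:111928815-111940938) and chromosome 17 (chr17:45704724-45710220). Hsp90aa1 was at 46.4, 56.0, 55.3 and 44.4 CPM with vehicle and at 42.6, 39.9, 52.6 and 98.1 CPM with IXA4. Hsp90ab1 was at 683, 729, 795 and 705 CPM with vehicle and at 649, 645, 676 and 910 CPM with IXA4. IXA4 replicate 4 was the highest of all libraries for both genes. The other 3 IXA4 libraries were below every vehicle library for Hsp90ab1, and replicates 1 and 2 were for Hsp90aa1. For Hsp90aa1 the log2 fold change was 0.21 (SE 0.28, interval -0.43 to 0.84, edgeR adjusted p = 0.744), and -0.17 without that library (interval -0.43 to 0.10). That of Hsp90ab1 was -0.02 (SE 0.13, interval -0.29 to 0.25, adjusted p = 0.959), and -0.15 without it (interval -0.36 to 0.06, adjusted p = 0.490). In CPM per kilobase the constitutive gene exceeded the inducible one in the vehicle group, with means of 289 and 15.4. The level of Hsp90aa1 is uncertain, since 73.1% of its 50-base stretches recurred elsewhere in the genome, against 8.30% for Hsp90ab1.

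Hspb1 encodes HSP25, a small heat shock protein that holds unfolding clients without using ATP (NCBIM37 chr5:136363789-136365433, plus strand). It was at 7.20, 8.38, 12.2 and 9.43 CPM with vehicle and at 6.38, 6.58, 6.64 and 14.2 CPM with IXA4. IXA4 replicates 1 to 3 were close together and below every vehicle library, whereas replicate 4 was the highest of the 8. The log2 fold change was -0.13 (SE 0.28, interval -0.75 to 0.48, edgeR adjusted p = 0.840). Without IXA4 replicate 4 it was -0.51 (SE 0.18, interval -0.89 to -0.13), which did not pass over all genes (unadjusted p = 0.0132, edgeR adjusted p = 0.159). The level of Hspb1 is uncertain, since 63.0% of its 50-base stretches recurred elsewhere.

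Dnajb1 encodes HSP40, the J-domain partner that delivers clients to HSP70 and starts its ATP cycle (NCBIM37 chr8:86132074-86135801, plus strand). It was at 17.1, 20.6, 21.0 and 16.5 CPM with vehicle and at 13.2, 15.6, 17.4 and 28.5 CPM with IXA4. IXA4 replicates 1 and 2 were below every vehicle library, replicate 3 lay within the vehicle range and replicate 4 was above it. With all libraries the log2 fold change was -0.01 (SE 0.21, interval -0.48 to 0.46, edgeR adjusted p = 0.990), and -0.29 without IXA4 replicate 4 (interval -0.57 to 0.00255, adjusted p = 0.309).

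Bag3 encodes a nucleotide exchange factor that releases clients from HSP70 and, with the small heat shock protein HSPB8, passes aggregated protein to selective autophagy. The gene lies on the plus strand of chromosome 7 (NCBIM37 chr7:135667097-135690491), and no 50-base stretch of its transcript recurred elsewhere. Bag3 was at 33.7, 43.6, 39.8 and 34.0 CPM in vehicle replicates 1 to 4 and at 56.8, 53.2, 75.0 and 84.0 CPM in IXA4 replicates 1 to 4. Every IXA4 library was above every vehicle library, which 7.43% of all genes tested also showed (8.74% when replicate 4 is left aside). Bag3 differed from the other genes in where the rise lay, because replicates 1 to 3 rose as well as replicate 4, and replicate 3 was close to it. On the log2 scale Bag3 rose by 0.83 (SE 0.15, interval 0.51 to 1.16, edgeR adjusted p = 0.00766), and 0.71 without IXA4 replicate 4 (interval 0.42 to 1.00, adjusted p = 0.0107). Leaving out any other library gave 0.77 to 0.94, with edgeR adjusted p of at most 0.0382.

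Markers of several liver cell types also differed between the groups, in both directions, where 3.64% of all genes tested were called higher and 0.99% lower. The summed level of 9 stellate cell and myofibroblast markers was 208 to 291 CPM with vehicle and 284 to 466 CPM with IXA4, with 3 of 9 called higher (Col1a1, Col3a1 and Acta2) and 2 called lower (Reln and Colec11) by edgeR. The 5 cholangiocyte markers summed to 25.9 to 31.1 CPM with vehicle and 44.5 to 49.6 CPM with IXA4, and 2 of them, Spp1 and Krt19, were called higher. The 7 sinusoidal endothelial markers summed to 123 to 208 CPM with vehicle and 90.6 to 155 CPM with IXA4, and 2 of them, Kdr and Oit3, were called lower. The 5 mesothelial markers summed to 8.07 to 20.3 CPM with vehicle and 10.1 to 34.7 CPM with IXA4, lowest of the IXA4 libraries in replicate 4, and 2 of them were called higher, Upk1b and Krt19, the latter listed for both epithelia. The stellate, endothelial and mesothelial sums overlapped between the groups and the cholangiocyte sum did not. The lymphocyte markers summed to at most 3.61 CPM in any library. The part of these differences in the level of Bag3 was not tested.

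Hspe1 encodes HSP10, the lid of the mitochondrial chaperonin, and shares a divergent promoter with Hspd1, which encodes the barrel (NCBIM37 chr1:55144976-55148151, plus strand). It was at 21.4, 20.9, 25.9 and 21.2 CPM with vehicle and at 23.8, 26.1, 22.9 and 24.2 CPM with IXA4. The groups overlapped and IXA4 replicate 4 was the third highest of the 8 libraries and not the highest, which no other gene of the set showed. The log2 fold change was 0.12 (SE 0.10, interval -0.10 to 0.34, edgeR adjusted p = 0.574), and 0.12 without that library. The partner gene Hspd1 was at 149 ± 6.57 CPM with vehicle and 164 ± 19.0 CPM with IXA4 (SD, n = 4; log2 fold change 0.14, edgeR adjusted p = 0.485). The 2 annotated genes overlap on opposite strands and the strand setting of the counting is not given in the sources used here. Shared reads make the level uncertain too, as 46.5% of the 50-base stretches of Hspe1 recurred elsewhere.

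**Figure D2:**
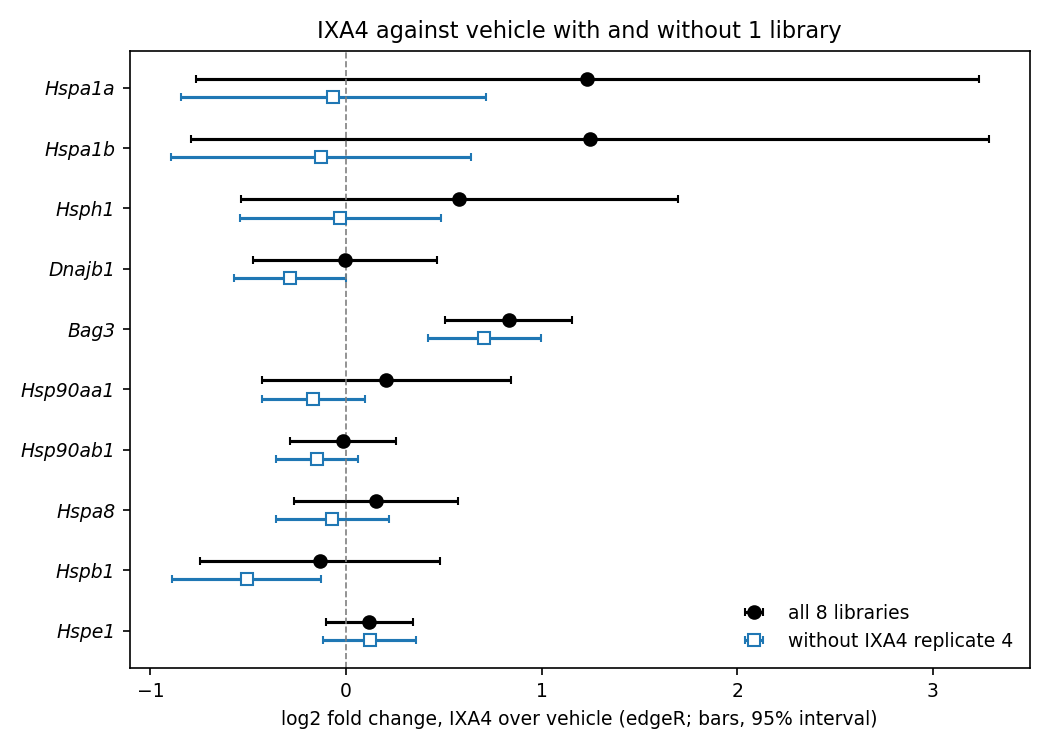
Log2 fold change of each heat shock gene between IXA4 and vehicle (horizontal axis) with its 95% interval from edgeR, for all 8 libraries (filled circles) and without IXA4 replicate 4 (open squares). The interval of Bag3 lies above 0 in both fits, and the intervals of Hspa1a, Hspa1b and Hsph1 become much narrower and centre near 0 once that library is left out.

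Without IXA4 replicate 4, 8 of the 10 log2 fold changes were negative, beside 52.1% of all genes, and their median was -0.10, beside -0.01 over all genes. Bag3 remained the 1 gene called, against 3.84% of the 12566 genes tested in that fit. Bag3 and Hspb1 had an unadjusted p under 0.05, as had 16.3% of all genes in that fit. Hsp90ab1 and Hspb1 were the 2 genes whose remaining IXA4 libraries all lay below the vehicle libraries, as 7.02% of all genes tested did.

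The highest control was not the same for all genes. The highest vehicle library was replicate 2 for Hspa1a, Hspa1b, Hsph1, Hsp90aa1 and Bag3, and replicate 3 for the other 5 genes. The matching shares over all genes are not given here. When vehicle replicate 2 was left out together with IXA4 replicate 4, the log2 fold change was 0.32 for Hspa1a (95% interval -0.15 to 0.79, edgeR adjusted p = 0.569), 0.21 for Hspa1b and 0.12 for Hsph1, while Bag3 stayed called at 0.78 (adjusted p = 0.0162).

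Cirbp and Rbm3 encode RNA-binding proteins whose transcripts are known to rise with mild cooling and fall with warming. Cirbp was at 10.6, 7.11, 11.7 and 10.8 CPM in vehicle replicates 1 to 4 and at 10.6, 10.4, 7.96 and 5.14 CPM in IXA4 replicates 1 to 4. Its lowest level was in IXA4 replicate 4 and its next lowest in vehicle replicate 2, the 2 libraries with the highest Hspa1a and Hspa1b of their groups. Rbm3 was at 2.00, 1.94, 2.48 and 3.76 CPM with vehicle and at 3.67, 3.03, 3.78 and 2.35 CPM with IXA4. Within each group its lowest library was the same as for Cirbp. Across both groups the order differed, since vehicle replicates 1 and 2 lay below IXA4 replicate 4. Neither gene passed between groups (edgeR adjusted p = 0.617 for Cirbp and 0.517 for Rbm3), and the part of body or tissue temperature in the heat shock levels was not tested.

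**Figure D3:**
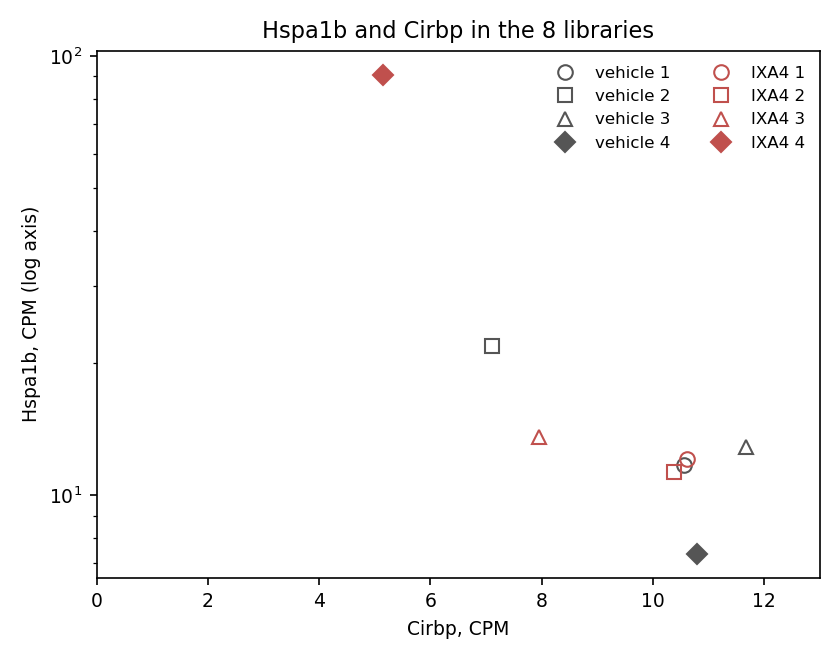
Hspa1b (vertical log axis, CPM) against Cirbp (horizontal axis, CPM), with 1 point for each of the 8 libraries, grey for vehicle and red for IXA4. The library with the highest Hspa1b, IXA4 replicate 4, has the lowest Cirbp, and vehicle replicate 2 comes next on both axes.

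Markers of cell types and handling were read in IXA4 replicate 4 as well. The summed level of 10 hepatocyte markers was 116712 CPM there, against 142316 to 146320 CPM in the other IXA4 libraries and 125502 to 158994 CPM in the vehicle libraries. The summed Kupffer cell and macrophage markers, of which 9 of 10 were measured, stood at 377 CPM there, against 215 to 251 CPM in the other IXA4 libraries and 178 to 387 CPM with vehicle. Of the immediate early genes, whose transcripts rise within minutes of handling or injury, 0 of 13 tested were highest there, where 21.1% of all genes tested were. The immediate early sum was 249.97 CPM there, against 245 to 619 CPM in the other IXA4 libraries and 229 to 336 CPM with vehicle. Thus the hepatocyte sum of that library lay below all others, while the macrophage and immediate early sums lay within the vehicle range. Single genes could differ from their sum, as did the immediate early genes Junb and Myc (given below), which stood above the vehicle range there. The 5 muscle markers summed to 0.273 to 0.920 CPM and the 6 pancreas and fat markers to 3.44 to 6.50 CPM over all libraries. The muscle genes Tnnt3 and Myh4, the pancreas genes Prss1 and Cpa1 and the fat gene Adipoq were at 0 in every library. The part of these differences in the heat shock levels was not tested.

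The ER holds its own chaperones and co-chaperones, here called ER counterparts, not all of which are relatives of the cytosolic genes. For 4 cytosolic genes, a gene with the same kind of job in the ER was read in the same library. Of 9 ER counterparts, 7 (Hspa5, Hsp90b1, Hyou1, Dnajb11, Dnajb9, Manf and Hspa13) passed as higher with IXA4 and 0 as lower (edgeR, beside 3.64% of all genes called higher). Their median log2 fold change was 1.96, and 8 were highest in IXA4 replicate 4, where 21.1% of all genes tested were. Without that library 8 were called and the median was 1.69. That the ER genes rise was known when they were listed, so their count is not independent evidence. Hspa5, the ER HSP70 BiP, was at 352, 428, 458 and 383 CPM with vehicle and at 985, 905, 1232 and 2514 CPM with IXA4. It rose in every IXA4 library, by 1.80 on the log2 scale (edgeR adjusted p = 0.0167), whereas Hspa8 did not pass. The call of Hspa5 was lost without vehicle replicate 1, 2 or 4, where the log2 fold change was 1.74, 1.82 and 1.77 and the edgeR adjusted p 0.0591, 0.0511 and 0.0593, and with no filter on low counts (1.79, adjusted p = 0.0581).

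The log2 ratio of Hspa8 to Hspa5 was 0.29, 0.26, 0.32 and 0.31 in the vehicle libraries and -1.27, -1.04, -1.11 and -1.67 in the IXA4 libraries. The vehicle ratios were nearly alike, every IXA4 ratio was lower, and replicate 4 was the lowest of them even though its Hspa8 was the highest. The mean ratio thus differed by -1.56 between groups, and by -1.43 without IXA4 replicate 4. The ratios carry no test, since the rise of the ER genes and of Bag3 was known when the 4 pairs were chosen and the ratios restate it. This was the behaviour of HSP90 too, where the log2 ratio of Hsp90ab1 to Hsp90b1, the ER HSP90 known as GRP94, was 0.14 ± 0.04 with vehicle and -0.98 ± 0.38 with IXA4 (SD, n = 4; difference -1.12).

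Hsph1 and its ER relative Hyou1 behaved differently within the IXA4 group. Their log2 ratio was -0.53, 0.06, -0.27 and -0.63 with vehicle and -2.07, -1.84, -2.11 and -1.81 with IXA4, a difference of -1.61. IXA4 replicate 4 had the highest of the 4 IXA4 ratios, by a narrow margin (-1.81 against -1.84 in replicate 2). For Hspa8 to Hspa5 and Hsp90ab1 to Hsp90b1 it had the lowest. Hsph1 and Hyou1 were each at their highest level in that library. The pair of Bag3 and Sil1, the exchange factor of BiP, went the other way, from -0.65 ± 0.28 with vehicle to 0.12 ± 0.31 with IXA4 (SD, n = 4; difference 0.78). Sil1 itself was at 59.3 ± 5.25 and 60.7 ± 3.39 CPM (edgeR adjusted p = 0.876). Without IXA4 replicate 4 the difference of this pair was 0.69.

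**Figure D4:**
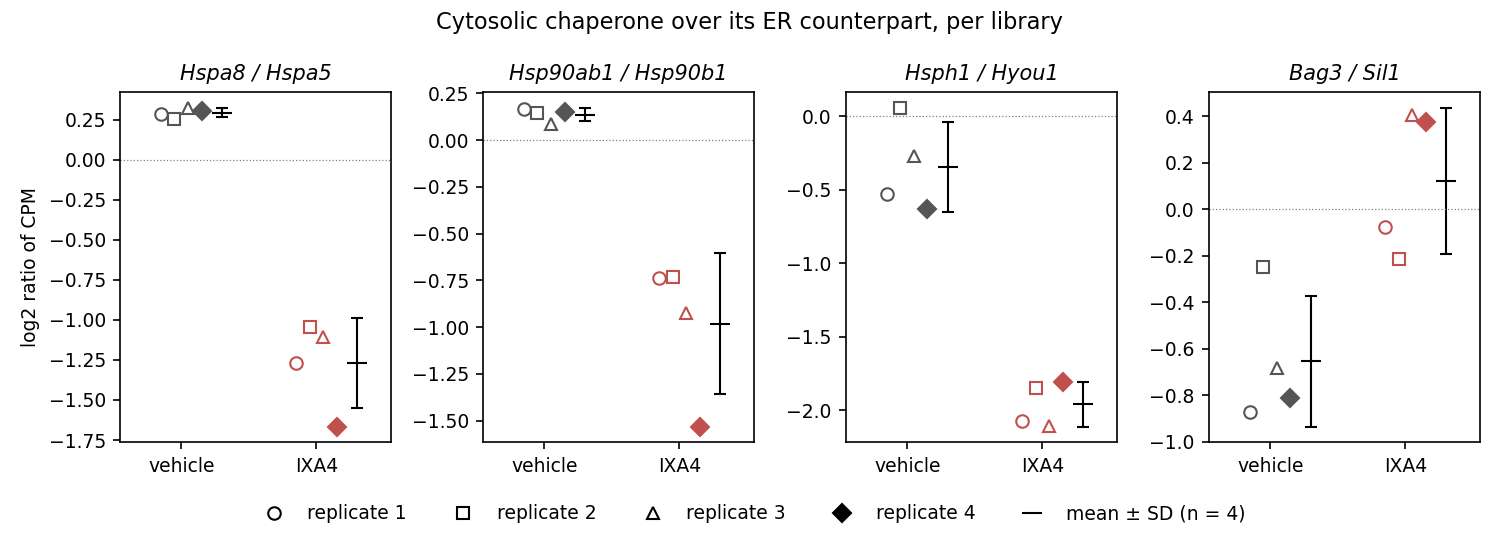
Log2 ratio of CPM of a cytosolic chaperone gene to its ER counterpart in each library (vertical axes, each with its own range), with the mean ± SD (n = 4) in black and replicate 4 filled. The first 3 pairs are lower in every IXA4 library than in any vehicle library, and Bag3 over Sil1 is higher in every IXA4 library.

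**Figure D5:**
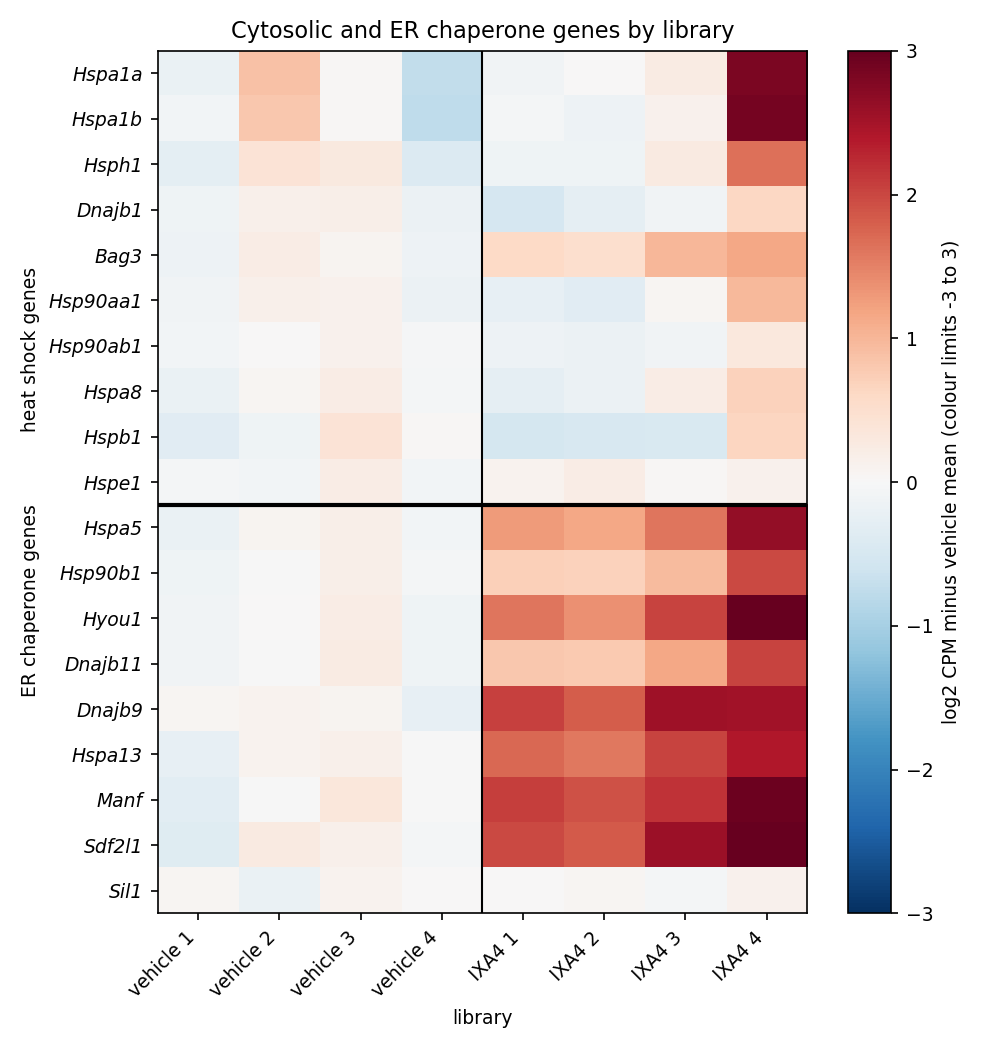
Log2 CPM minus the vehicle mean for the 10 heat shock genes (above the line) and 9 ER chaperone genes (below it) in the 8 libraries, with red above and blue below the vehicle mean and colours saturated beyond -3 and 3. In the upper block the column of IXA4 replicate 4 and the row of Bag3 stand out, and in the lower block all IXA4 columns are red except in the row of Sil1.

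Among the heat shock genes, the log2 ratio of Bag3 to another gene was higher in every IXA4 library than in every vehicle library for Hspa8, Hsp90aa1, Hsp90ab1, Hspb1 and Dnajb1, by 0.70, 0.70, 0.84, 1.01 and 0.88. The ratios to Hspa1a, Hspa1b, Hsph1 and Hspe1 overlapped between groups. Without IXA4 replicate 4 the ratios to Hspa1b and Hsph1 no longer overlapped. Bag3 alone did not overlap between groups, so these ratios largely restate its rise, and the share of all genes with such a ratio is not given here. The ratios were chosen after the values were seen and are given without a test.

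The wider chaperone system was followed in 9 further lists, of which 73 of 83 genes were tested. By edgeR 0 of the 73 genes passed in either direction, where 4.63% of all genes tested did. With p left unadjusted, 5 were higher and 4 lower below 0.05 (19.2% of all genes tested had such a p in either direction), and DESeq2 called 1, Hspb8. Their median log2 fold change was 0.04, beside -0.01 over all genes tested. IXA4 replicate 4 was the highest library for 28 of the 73 (38.4%), against 21.1% of all genes tested. At a share of 4.63%, lists as short as those below would often hold 0 called genes, so a count of 0 says little about a single list.

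Of 4 tested genes for heat shock factors and their regulators, 0 passed. Hsf1 itself was at 14.1 ± 0.865 CPM with vehicle and 15.1 ± 1.12 CPM with IXA4 (SD, n = 4; log2 fold change 0.10, interval -0.13 to 0.33, edgeR adjusted p = 0.658). In IXA4 replicate 4 it was at 16.1 CPM, against 13.5 to 15.5 CPM in the other IXA4 libraries. Hsf2, a relative that can pair with HSF1, was at 17.8 ± 2.53 CPM with vehicle and 14.8 ± 1.07 CPM with IXA4 (log2 fold change -0.26, edgeR adjusted p = 0.256). Transcript levels do not report the activity of HSF1, which is set on the protein.

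The partners of Bag3 were measured too. Hspb8, which encodes the small heat shock protein bound by BAG3, was at 64.8, 76.1, 73.2 and 73.5 CPM with vehicle and at 90.8, 70.4, 157 and 148 CPM with IXA4. The groups overlapped through IXA4 replicate 2, while replicates 3 and 4 were about equal and far above the vehicle range. Its log2 fold change of 0.69 (SE 0.24, interval 0.16 to 1.23) did not pass with edgeR over all genes (adjusted p = 0.152). Without IXA4 replicate 2 it did, at 0.88 (edgeR adjusted p = 0.00841), and leaving out any other single library did not make it pass. Without IXA4 replicate 4 it was 0.56 (interval -0.04 to 1.16, edgeR adjusted p = 0.337), and without replicate 3 it was 0.52 (adjusted p = 0.262). Cryab, another small heat shock protein gene, was at 2.73 ± 0.388 CPM and 4.18 ± 1.02 CPM (SD, n = 4; edgeR adjusted p = 0.139).

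Of 5 tested genes for other nucleotide exchange factors of HSP70, 0 passed, and their median log2 fold change was -0.11. Bag4 was at 11.0 CPM with vehicle and 8.70 CPM with IXA4 (log2 fold change -0.34, edgeR adjusted p = 0.162), and Bag1, whose product also joins HSP70 to the proteasome, was at 108 and 94.1 CPM (adjusted p = 0.312). Bag5, which had the smallest p among those with a positive sign, was at 10.3 and 11.1 CPM (adjusted p = 0.699).

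Of 11 other J-domain genes, 0 passed, and 7 were highest in IXA4 replicate 4, where 21.1% of all genes tested were. Dnaja1, an abundant J-domain partner of HSC70, was at 69.6 CPM in that library, against 53.9 to 57.5 CPM in the other IXA4 libraries and 47.3 to 59.7 CPM with vehicle. Dnajb4 was at 24.1 ± 3.48 and 29.3 ± 5.04 CPM (SD, n = 4; edgeR adjusted p = 0.299), and Dnajc21 was at 26.0 and 30.2 CPM (adjusted p = 0.189).

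Of 16 HSP90 co-chaperone genes, 0 passed and 8 were highest in IXA4 replicate 4, where 21.1% of all genes tested were. Stip1, whose product HOP links HSP70 to HSP90, was at 89.0 CPM there, against 54.1 to 55.7 CPM in the other IXA4 libraries and 46.3 to 64.3 CPM with vehicle. Fkbp4, which encodes a steroid receptor co-chaperone, was at 153 CPM there and at 98.5 to 110 CPM in the other IXA4 libraries. Chordc1, a known heat-inducible HSP90 partner, had the smallest p of the list, at 20.8, 22.1, 29.4 and 43.1 CPM with IXA4 against 16.1 to 21.2 CPM with vehicle (log2 fold change 0.54, edgeR adjusted p = 0.209).

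The remaining lists held 0 called genes. Of the 13 TRiC chaperonin and prefoldin genes, which fold actin and tubulin, log2 fold changes ran from -0.18 to 0.13. Of 10 mitochondrial chaperone and protease genes, Grpel2 was at 10.8 CPM with vehicle and 8.35 CPM with IXA4 (log2 fold change -0.37, edgeR adjusted p = 0.125) and Clpx at 60.5 and 77.1 CPM (adjusted p = 0.303). Of 5 other HSP70 and HSP110 genes, Hspa4l, which encodes another HSP110 relative, was at 16.4 CPM in IXA4 replicate 4 and at 6.66 to 10.0 CPM in the other 7 libraries. The smallest p of that list were those of Hspa2 and Hspa4 (log2 fold change 0.35 and 0.11, edgeR adjusted p = 0.484 and 0.496). Hspa1l was the 1 gene with a negative sign (-0.14, edgeR adjusted p = 0.854). Ubb, a polyubiquitin gene that heat shock induces, was at 388 ± 25.4 and 462 ± 42.5 CPM (SD, n = 4; log2 fold change 0.25, edgeR adjusted p = 0.190), with every IXA4 library above every vehicle library.

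The genes whose pattern over the 8 libraries was nearest to the mean pattern of Hspa1a, Hspa1b, Hsph1 and Dnajb1 were found among 11442 genes with a mean of at least 1 CPM over the 8 libraries. Nearness was the root mean square distance of log2 CPM minus the vehicle mean. Ptch1, the Hedgehog receptor gene, was the nearest at 0.29, with 16.9 CPM in IXA4 replicate 4 against 5.02 to 8.66 CPM in the other 7 libraries. Sel1l, which encodes an ER-associated degradation adaptor, was at 0.37, with 117 CPM against 40.6 to 60.7 CPM, and Hspa4l was at 0.40. Gm19570, Wdr47, Serpine2 and BC021891 were also among the nearest 8, and 1 further row carried a date in place of a symbol and is not named. None of the 7 named genes passed between groups (edgeR adjusted p of 0.244 to 0.681). This follows largely from the choice, since they were picked for likeness to genes that did not pass.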

How the data were processed

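RNA-seq was performed on livers of 4 vehicle-treated and 4 IXA4-treated DIO mice. The authors aligned single-end 50-base reads to the MGSCv37 mouse genome with SeqManPro and counted them per gene symbol with ArrayStar and QSeq, and the deposited values are raw counts. How reads with several matches were treated is not given in the sources used here. A second table holds the authors' own DESeq comparison (means, fold changes and p-values) and was not used. Libraries were grouped by column name, and the columns could be tied to a group but not to an animal, so p-values measure the spread between these libraries.

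Genes were kept by edgeR's expression filter (minimum count 10, minimum total 15). The groups were compared with the edgeR 4.0.16 quasi-likelihood test (R 4.3.3) after TMM scaling, with Benjamini-Hochberg adjustment over 12427 genes and a threshold of 0.05. The fit was also run on simulated counts drawn gene by gene. No simulated library was shifted over many genes, so that run does not cover a library such as IXA4 replicate 4. Library totals of 16986915 to 18390185 counts give each level its precision, and no 2 libraries agreed within sampling noise. Exact permutation tests of the ratios had been planned and are not reported, since the ratios restate changes already known. Levels per kilobase used the longest annotated transcript, and recurrence was searched over 50-base windows of that transcript in the NCBIM37 genome. Gene positions are from GENCODE vM1, matched by symbol. The alternatives were DESeq2 1.42.0, its size factors, total-count scaling, other filters, the summed HSP70 copies and leaving out each library. Leaving out IXA4 replicate 4 with vehicle replicate 2, the sum without IXA4 replicate 4 and the ratios of Bag3 to other genes were chosen after seeing the data. The text names all 10 genes, in the further lists any gene called and up to 2 genes of smallest p in each direction, the ER partners and the 8 nearest profiles. The places for genes of smallest p were not filled in every list and direction, and no TRiC or prefoldin gene is named. Genes named outside this rule were chosen after their values were seen: Dnaja1, Stip1, Fkbp4, Hspa4l in its list and the marker genes at 0. The genes and lists were chosen with earlier results of these data known.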

Additional observations from a re-analysis of the deposited data

Results flagged for a closer look

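Gaps between libraries were taken on log2 CPM. Gaps taken on CPM can differ, so which genes are flagged depends on this scale. Among 28 groups of 4 libraries examined, 5 held a library whose gap to its nearest neighbour, as a share of the range of its group, was above Dixon's 95% critical value for 4 values. Chance gives such a gap in about 1 group in 20. In 4 of the 5 the library was IXA4 replicate 4 at the top of the IXA4 group. The gap took 0.878 of the range for Hspa1a, 0.913 for Hspa1b, 0.865 for Hsp90ab1 and 0.950 for Hspb1. In the last it was vehicle replicate 3 at the top of the vehicle group for Hspe1 (0.888), where the spread was small in CPM. The 4 genes share 1 library, so these are not separate events, and the cause was not tested.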

How the results depend on the processing

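Bag3 was the 1 called gene of the set under all 16 alternatives, and its log2 fold change ran from 0.71 to 0.94. The sign of Hspe1 held under all 14 of its alternatives (0.088 to 0.21), and the signs of the other 8 genes depended on single libraries, with none of them called. Leaving out 1 library gave -0.29 to 0.13 for Dnajb1, -0.17 to 0.36 for Hsp90aa1, -0.15 to 0.039 for Hsp90ab1, -0.065 to 1.62 for Hspa1a, -0.13 to 1.59 for Hspa1b, -0.070 to 0.28 for Hspa8, -0.51 to 0.032 for Hspb1, -0.029 to 0.77 for Hsph1 and -0.026 to 0.083 for Sil1. Dnajb1 was 0.00319 with 10 counts required in every library. Leaving out vehicle replicate 2 with IXA4 replicate 4 gave -0.055 for Hspa8, -0.11 for Hsp90aa1 and -0.55 for Hspb1, and the summed HSP70 copies without IXA4 replicate 4 gave -0.11. DESeq2 gave no p for Hspa1a and Hspa1b, and called 256 of all genes lower (123 with edgeR) and 1 other chaperone gene, Hspb8. Leaving out 1 library gave 261 to 613 genes higher (452 with all libraries) and 43 to 162 lower, 0 to 1 other chaperone genes higher, and 3 to 8 ER counterparts higher (7 with all libraries). This last count was 3 without vehicle replicate 1, 2 or 4, was 4 without vehicle replicate 3 or IXA4 replicate 3, and was 3 with no minimum count. The log2 ratio difference of Bag3 to Sil1 ran from 0.68 to 0.91. Motifs of 3 units were in 1 gene rather than 2 when only bases before the start site counted. The cause of these differences was not tested. Hspa1a rested on 75 to 228 counts per vehicle library, and depth was not varied. No paired analysis was possible because the groups share only replicate number 1 in the labels and the columns cannot be matched to animals.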

Other observations

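Of 14 tested circadian clock genes, whose hepatic transcripts cycle with feeding and body temperature, 1 was called lower and 0 higher, where 0.99% and 3.64% of all genes tested were. Hlf, which encodes a PAR-bZIP output factor of the clock, was at 20.2, 21.1, 19.7 and 18.8 CPM with vehicle and at 12.7, 13.3, 11.3 and 11.8 CPM with IXA4. The groups did not overlap, replicate 4 lay among the other IXA4 libraries, and the log2 fold change was -0.70 (edgeR adjusted p = 0.00175). Per2, a clock gene that HSF1 is known to induce, was at 23.5 CPM with vehicle and 29.1 CPM with IXA4 (log2 fold change 0.31, edgeR adjusted p = 0.464).

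Of 13 tested immediate early genes 0 passed with edgeR, where 4.63% of all genes tested did. By edgeR 2 had an unadjusted p below 0.05, as had 19.2% of all genes tested, and DESeq2 called 1, Myc. Myc was at 1.79, 2.39, 2.24 and 3.82 CPM with vehicle and at 4.35, 4.14, 7.04 and 4.16 CPM with IXA4, with every IXA4 library above every vehicle library (log2 fold change 0.94, edgeR adjusted p = 0.0599). Junb was at 29.5, 11.5, 143 and 49.9 CPM in IXA4 replicates 1 to 4 and at 11.6 to 18.6 CPM with vehicle (edgeR adjusted p = 0.212). The highest library of both genes was IXA4 replicate 3, which is not the library in which the heat shock genes were highest.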
